A study of Mus musculus with 6 samples.

Results

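The RNA of control cultures of germline stem (GS) cells is described here from 3 of the 6 libraries of the series, those titled as controls, without reference to the other 3. GS cells are spermatogonia taken from mouse testis that multiply in culture. The control cells carried p57 flox/flox alleles, meaning that Cdkn1c, which encodes the CDK inhibitor p57, bears loxP sites, and they differ by label from the remaining libraries in having no Cre recombinase. The growth protocol, worded alike for all 6 samples, speaks of Cre adenovirus without setting the controls apart. RNA was collected 2 days after adenovirus infection of the experiment, once the cells had been brought into single-cell suspension with trypsin and cleaned on a Sephadex column. The sources used here do not say if an empty virus was given to the controls, or if the 3 libraries are separate cultures, so the spread between them may be technical. The labels contradict each other on the mice: the age is 3 days in the growth protocol and 10 days in the design text, and the strain is BDF1 in the sample labels and a C57BL/6 and 129 background in the design text.

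Spermatogonial stem cells sit on the basement membrane of the seminiferous tubule and either renew themselves or enter differentiation, which leads to meiosis and sperm. Sertoli and peritubular cells supply glial cell line-derived neurotrophic factor (GDNF), which acts on germ cells through its co-receptor Gfra1 and the kinase Ret. Retinoic acid starts differentiation, marked by the kinase Kit and by Stra8, the gatekeeper of meiosis. GS cells depend on added GDNF and are usually kept on a layer of fibroblasts, though the labels do not name a feeder layer.

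The libraries held 16460019, 16979459 and 15662833 counts in replicates 1, 2 and 3. Levels are given in CPM, counts scaled to a library total of 1000000 after TMM adjustment, as mean ± SD over the 3 libraries. CPM grows with gene length, so an order of genes by CPM, as in "led by" or "most reads", is one of reads and not of transcripts. Levels of different genes are compared per kb, the CPM divided by the length of the gene's merged exons. A gene was called detected at 1 CPM or more in every library, which held for 13175 of 32285 genes. Among the 21702 protein-coding genes 12581 were detected, and counts of detected members of a list or family are to be read against that share. The median of all detected genes was 34.0 CPM, and 2899 genes reached 100 CPM on average. Another 10797 genes had no count in any control library, which allows a level of up to 0.0611 CPM over the pooled libraries, counting error only.

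Promoter sequences of 7 germ cell genes are shown as examples of the letters behind the counts of CpG and of a motif that follow. RefSeq promoters (build GRCm38.p6) reach from 250 bases before to 50 bases after a gene's start, and 13880 protein-coding genes of the table had a single one. The letters searched were GCGGGAA and their reverse complement TTCCCGC, the core that the repressor E2f6 and others of its family can bind, printed in capitals. The first 5 belong to germ cell genes of 10 CPM or more whose bases shown hold the motif. Tex14 builds the bridges between sister germ cells, Smc1b is a meiotic cohesin, Brca2 serves recombination, Rpl10l is a germ form of a ribosomal protein, and Sycp3 is part of the axis of meiotic chromosomes. The last pair, Tnp2, a transition protein of spermatid chromatin, and Acrv1, a protein of the acrosome, had 1 count each in a single library. All 7 were chosen after their values were seen, the first 5 for holding the motif, so they do not show that it separates transcribed from silent genes. Each run is the 180 bases that end just before the start, on the strand of the gene.
Tex14, chr11:87404885-87405064, plus strand: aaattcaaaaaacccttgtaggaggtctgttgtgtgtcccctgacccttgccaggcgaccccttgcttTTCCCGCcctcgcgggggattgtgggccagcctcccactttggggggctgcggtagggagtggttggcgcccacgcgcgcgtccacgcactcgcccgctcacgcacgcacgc
Smc1b, chr15:85131958-85132137, minus strand: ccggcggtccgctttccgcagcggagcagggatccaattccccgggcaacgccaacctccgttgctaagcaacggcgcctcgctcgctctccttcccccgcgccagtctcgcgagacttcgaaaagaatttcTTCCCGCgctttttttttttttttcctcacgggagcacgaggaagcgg
Brca2, chr5:150522441-150522620, plus strand: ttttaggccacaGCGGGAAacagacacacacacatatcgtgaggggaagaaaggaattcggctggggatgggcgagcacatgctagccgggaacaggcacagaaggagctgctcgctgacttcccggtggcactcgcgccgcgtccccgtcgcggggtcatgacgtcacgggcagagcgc
Rpl10l, chr12:66284402-66284581, minus strand: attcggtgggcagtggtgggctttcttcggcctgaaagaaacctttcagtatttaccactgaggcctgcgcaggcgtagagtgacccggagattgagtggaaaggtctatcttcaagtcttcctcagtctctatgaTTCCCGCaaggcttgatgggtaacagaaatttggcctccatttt
Sycp3, chr10:88459407-88459586, plus strand: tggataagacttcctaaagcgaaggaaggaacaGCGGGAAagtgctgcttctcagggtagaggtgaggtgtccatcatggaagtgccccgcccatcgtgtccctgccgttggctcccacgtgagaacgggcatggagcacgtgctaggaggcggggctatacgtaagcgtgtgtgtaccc
Tnp2, chr16:10788656-10788835, minus strand: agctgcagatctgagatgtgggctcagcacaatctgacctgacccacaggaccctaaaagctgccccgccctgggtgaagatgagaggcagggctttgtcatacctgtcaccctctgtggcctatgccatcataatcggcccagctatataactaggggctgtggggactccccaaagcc
Acrv1, chr9:36693040-36693219, plus strand: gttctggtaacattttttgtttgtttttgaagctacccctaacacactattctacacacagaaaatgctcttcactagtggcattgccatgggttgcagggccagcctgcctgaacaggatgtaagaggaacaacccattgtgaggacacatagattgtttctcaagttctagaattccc
Tex14 was at 334 ± 12.1 CPM and its 180 bases hold 16 CpG, while those of Smc1b, at 165 ± 7.45 CPM, hold 22. Rpl10l was at 95.8 ± 2.67 CPM with 6 CpG. In Brca2, at 141 ± 0.708 CPM, there are 17 CpG, and in Sycp3, at 42.7 ± 0.346 CPM, there are 11. Those of Tnp2 hold 2 CpG and those of Acrv1 hold 0. Over the whole window, the motif was present in 10 of the 23 meiosis genes with a single promoter (43.5%), namely Brca2, Meioc, Msh5, Rec114, Smc1b, Spata22, Stag3, Sycp3, Tex12 and Tex14. It was present in 6 of 19 germline genes that promoter methylation keeps silent in somatic cells (31.6%), and 2 of these 6, Stag3 and Sycp3, are also in the meiosis list. Other lists with detected germ cell genes held it less often. It was in 2 of 12 promoters of genome defence genes (16.7%, Ddx4 and Tdrd5) and 1 of 10 of RNA-binding regulators (Ddx4). Growth factor receptors had it in 1 of 14 (Met) and pluripotency genes in 1 of 11 (Klf4). It was in 0 of 11 promoters of transcription factors of undifferentiated spermatogonia, 0 of 12 of surface markers and 0 of 8 of differentiation genes. With so few promoters per list, such counts cannot be set apart from the share over all promoters. Of 17 promoters of spermatid genes 1 held it, that of Prm3. Among all 13880 promoters the share was 6.11%, and in those of genes of 100 CPM or more it was 12%. A match describes the letters and not a bound site.

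CpG content followed the level across the genome. Promoters of the 3122 genes without a count held a median of 2 CpG in 300 bases, against 6 for the 2617 genes under 1 CPM, 15 for the 1981 genes from 1 to under 10 CPM, 22 for the 4327 genes from 10 to under 100 CPM and 26 for the 1833 genes of 100 CPM or more. The letters TATAAA, read on both strands, went the other way, from 31.3% of promoters of genes without a count to 6.06% of those of 100 CPM or more. The 17 spermatid promoters had a median of 4 CpG, near the silent classes. The 23 meiosis promoters, with 18, lay among those of expressed genes. These shares are across genes, which are not independent replicates.

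The RNA was spread over many genes. The leading gene took 1.16 ± 0.0253% of counts, the leading 10 took 4.98 ± 0.0681%, the leading 100 took 13.0 ± 0.112% and the leading 1000 took 42.3 ± 0.134%. Proteins of translation, folding and respiration filled the top. By level per kb, mt-Cytb stood first at 8770 ± 84.5, followed by mt-Co1 at 7513 ± 190.2, mt-Nd1 at 5620 ± 152 and mt-Nd2 at 3889 ± 54.4, all subunits of the respiratory chain encoded in mitochondrial DNA. After mt-Nd5 and mt-Nd4 came Eef1a1, the elongation factor that brings aminoacyl-tRNA to the ribosome, at 1539 ± 39.4, then genes that included those of the ribosomal proteins Rplp1, Rps15, Rpl4 and Rps3a1 with the chaperone gene Hsp90ab1, the translocase gene Eef2 and the ferritin gene Ftl1, between 635 and 1229 per kb.

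Large genes drew many reads as well. Chd4, the ATPase of the NuRD chromatin remodeller, stood at 2067 ± 45.3 CPM, and Trip12, a ubiquitin ligase, at 1623 ± 29.9 CPM. The dynein heavy chain gene Dync1h1 (1355 ± 54.1 CPM), the ribosome assembly ATPase gene Mdn1 (1299 ± 73.0 CPM), the splicing factor gene Srrm2 (1296 ± 37.8 CPM) and the ubiquitin ligase gene Huwe1 (1226 ± 73.7 CPM) were also among the leading 25. The list further held Hsp90aa1, Actb, Pabpc1, Ddx5, Psmd2, Hspa8, Prrc2a, Cct8 and the gene model Gm42418. Gm42418, at 1182 ± 81.0 CPM, is a noncoding model that lies over ribosomal RNA repeats, and only 7.06% of its 76-mers occur in no other annotated gene.

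Among families, the 13 mitochondrially encoded protein genes took 3.80 ± 0.0569% of counts and the 82 cytosolic ribosomal protein genes 3.38 ± 0.0468%, with all 82 detected. Elongation and initiation factors took 2.00 ± 0.00679%, the Zfp zinc finger genes 1.34 ± 0.00191% with 356 of 399 detected, heat shock proteins 1.13 ± 0.00798%, and solute carriers 1.03 ± 0.00778% with 221 of 376 detected. All 47 nuclear encoded subunit genes of respiratory complex I, all 78 mitochondrial ribosomal protein genes, all 37 DEAD-box helicase genes and all 9 chaperonin genes were detected. In the plot of family shares the 3 libraries lie nearly on top of each other.

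**Figure D1:**
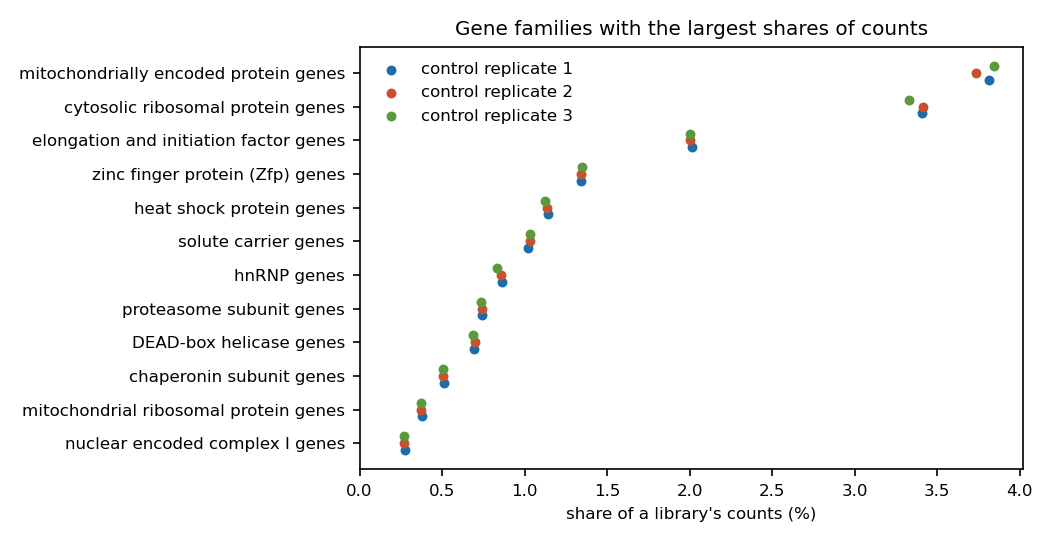
Share of each library's counts, in percent, taken by the 12 gene families with the largest shares, with 1 point per control library. The mitochondrially encoded genes (3.80% on average) and the cytosolic ribosomal protein genes (3.38%) lead, and the points of a family lie close together.

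Other families were nearly silent. Of 1135 olfactory receptor genes, 4 were detected and 1059 had no count, and of 333 vomeronasal receptor genes, 1 was detected. Of 53 keratin genes, 6 were detected, with Krt5 and Krt14, keratins of basal epithelium, at 0 counts. The melanoma antigen (Mage) family, of which many members are X-linked and testis-specific, had 17 of 21 members detected. Clustered histone genes took 0.00582 ± 0.000335% of counts, with 6 of 67 detected. Their mRNA ends in a stem-loop in place of a poly(A) tail, and the labels name mRNA kits. Whether this bears on their level was not tested.

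Reads that match several genes are a limit on some of these levels, because no label or header used here says how they were treated. Of the mitochondrial genes, mt-Co2 (34.4 ± 3.47 per kb), mt-Atp6 (9.07 ± 0.289 per kb), mt-Co3 (7.49 ± 1.01 per kb), mt-Nd3 (5.27 ± 1.23 per kb) and mt-Nd4l (2.74 ± 1.14 per kb) were far below mt-Co1 at 7513 ± 190.2 per kb. Between 0.14% and 2.2% of the 76-mers of those 5 genes are unique to them, against 60.6% for mt-Co1. Low levels were not limited to those 5 genes, since mt-Atp8, with all of its 76-mers unique, was at 2.79 ± 0.389 per kb. The 76-mers were compared among annotated transcripts only, so copies of mitochondrial DNA outside gene models are not seen. The mt-Atp8 gene also overlaps mt-Atp6. Whether shared reads bear on its level was not tested. In all, 2568 genes had under 50% unique 76-mers, of which 264 were detected.

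Receptors for the growth factors of the niche were nearly all detected, 25 of 26. Their median was 3.05 per kb, below the 8.01 per kb over all detected protein-coding genes. Ret was at 581, 541 and 561 CPM in replicates 1 to 3, or 82.9 ± 2.91 per kb; its locus is chr6:118151745-118197718, minus strand, in mm10. Gfra1, the co-receptor that binds GDNF, was at 283, 269 and 277 CPM, or 50.5 ± 1.28 per kb. The insulin-like growth factor receptors Igf2r (345 ± 2.55 CPM) and Igf1r (315 ± 9.88 CPM) also stood among the 4 with most reads. By the chi-square test described below, 2 of the 25 tested receptor genes varied beyond counting noise, against 4.42% of all tested genes. Ret, the sole call among the 4 above (adjusted p = 0.0008), had an excess CV of 3.34%. Its call was lost without replicate 1, without replicate 2 and with edgeR's common dispersion in the expectation. Pdgfrb, also among the fibroblast and feeder cell genes below, had an excess CV of 40.2%. The Pdgfrb call was lost without replicate 2, without replicate 3 and with the common dispersion. Csf1r, the receptor of macrophage growth factor, was at 0, 0.176 and 0 CPM. Gdnf itself, a product of somatic cells, had counts in replicate 2 alone, with 0.411 CPM.

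Transcription factors of undifferentiated spermatogonia had 24 of 25 members detected, 14 of them at 100 CPM or more. Etv5, an ETS factor induced by GDNF and needed for stem cell renewal, was at 603, 612 and 649 CPM. Bcl6b, another GDNF-induced factor, was at 378, 400.5 and 417 CPM. Tcf3, the E protein that pairs with ID proteins, was at 428 ± 8.34 CPM, Zbtb16 (also known as PLZF) at 310 ± 10.4 CPM and Id4, a marker of the most stem-like cells, at 111 ± 3.46 CPM. Neurog3, which marks cells on their way out of the stem cell pool, was at 3.03 ± 0.0231 CPM. The pancreatic factor gene Pdx1 was not detected, at 0.0992 ± 0.0901 CPM.

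Of 16 RNA-binding regulators of germ cells 15 were detected. Dazl, which drives translation of germ cell mRNAs, was at 1075, 1159 and 1112 CPM, or 292 ± 11 per kb, among the 33 genes of 1000 CPM or more. Igf2bp1 (687 ± 21.5 CPM), the helicase gene Ddx4 (401 ± 1.67 CPM) and the RNA-binding factor Celf1 (280 ± 4.55 CPM) followed. Nanos2, the repressor that keeps male germ cells undifferentiated, was at 6.54 ± 0.960 CPM, with 53.6% of its 76-mers unique. Rbmy, a Y-linked family whose 76-mers are all shared, was at 1 count per library.

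All 20 surface markers of stem spermatogonia were detected. Mcam (CD146) led with 1094, 1109 and 1182 CPM, or 337 ± 14.1 per kb, and the integrin gene Itgb1 (339 ± 10.4 CPM), the ephrin receptor gene Epha2 (222 ± 5.36 CPM) and the tetraspanin gene Cd9 (186 ± 7.65 CPM) followed. Thy1, much used to sort stem spermatogonia but also in the fibroblast and feeder cell list below, was at 11.5 ± 1.0 CPM. The cadherin gene Cdh1 was at 4.76 ± 1.06 CPM. From which cells of the cultures the RNA of these markers came was not tested.

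Genes of differentiation were split. Of 16 members 14 were detected, led by Ccnd2, a D-type cyclin (1102 ± 33.9 CPM), Dmrt1, which holds back meiosis (422 ± 13.5 CPM), Uchl1, a marker of all spermatogonia (323 ± 11.2 CPM), and Sohlh2 (311 ± 8.74 CPM). Of the genes that mark the step into differentiation, Stra8 was at 18.6, 19.5 and 18.4 CPM, or 10.4 ± 0.346 per kb, and Kit at 5.17, 6.28 and 5.31 CPM, or 0.627 ± 0.0674 per kb. The median level per kb over all detected protein-coding genes was 8.01, so that Kit lay below it in every library, Stra8 a little above it, and Ret, Gfra1, Dazl and Mcam far above it. Rarb, a retinoic acid receptor gene that retinoic acid induces, was at 0.101 ± 0.0910 CPM.

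**Figure D2:**
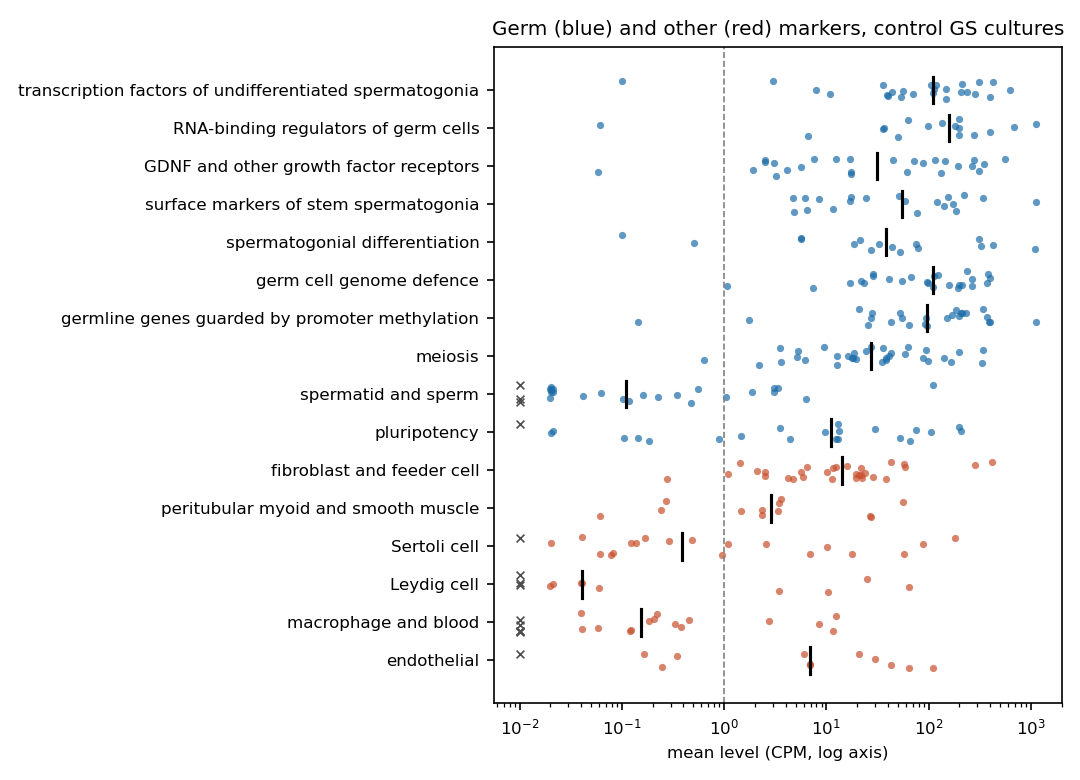
Mean level over the 3 control libraries, in CPM on a log axis, of each gene in 16 marker lists (blue, germ cell and pluripotency lists, red, lists of other cell types). Black bars are medians, crosses are genes without a count, values under 0.02 CPM are drawn at 0.02 and the dashed line is 1 CPM; the germ lists up to meiosis lie mostly to the right of it, and the spermatid, Leydig, Sertoli and blood lists mostly to the left.

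Of the 25 listed genes of germ cell genome defence 24 were detected and 13 were at 100 CPM or more. Piwil2, a PIWI protein that binds small RNAs from transposons, was at 378, 376 and 379 CPM. The helicase gene Mov10l1, needed to make those RNAs, was at 371 ± 8.08 CPM, Ddx4 at 401 ± 1.67 CPM and Fkbp6 at 264 ± 5.31 CPM. Tdrd6, which acts in spermatocytes and spermatids, missed the threshold in replicate 3 alone, with 1.10, 1.23 and 0.896 CPM.

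Germline genes that somatic cells keep silent by promoter methylation were detected in 24 of 25 cases, with a median of 39.7 per kb over all 25 members, against 8.01 per kb over all detected protein-coding genes. Dazl and Ddx4 belong here, as do the TFIID subunit gene Taf7l (386 ± 6.34 CPM) and Mov10l1. Dppa3, a maternal and primordial germ cell factor, was the exception at 0.145 ± 0.10 CPM. The enzymes of DNA methylation were led by Uhrf1, which guides maintenance methylation (803 ± 22.8 CPM), the maintenance enzyme gene Dnmt1 (718 ± 2.88 CPM) and the de novo enzyme gene Dnmt3a (331 ± 9.12 CPM). Tet3 was at 85.1 ± 4.24 CPM. Dnmt3l, the cofactor of de novo methylation in fetal germ cells, was at 0.528 ± 0.181 CPM, and Dnmt3c, which methylates young transposons, at 0.263 ± 0.151 CPM.

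RNA of meiosis genes was present in these mitotic cultures. Of 33 members 32 were detected, 5 of them at 100 CPM or more, with a median of 10.4 per kb over all members. Stag3, a meiotic cohesin, was at 348, 330.0 and 340 CPM. Tex14 followed with 340, 320 and 342 CPM, Sycp1, of the synaptonemal complex, with 197, 210 and 194 CPM, and Smc1b with 173, 165 and 158 CPM. Spo11 and Prdm9, which make and place meiotic breaks, were at 1.34 ± 0.102 and 0.816 ± 0.195 per kb, against 59.2 ± 1.62 per kb for Stag3 and 66.6 ± 2.41 per kb for Tex14. Ccna1, the cyclin of spermatocytes, was not detected, at 0.639 ± 0.273 CPM.

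Genes of spermatids and sperm had 6 of 26 members detected. Odf2 was at 111 ± 7.0 CPM, and it also encodes a centrosome protein of dividing cells. Izumo1, of sperm and egg fusion, was at 6.36 ± 0.471 CPM, Zpbp at 3.39 ± 0.350 CPM and Tekt1 at 3.09 ± 0.512 CPM. The protamine gene Prm1, the sperm calcium channel gene Catsper1 and the sperm glycolysis gene Gapdhs had no count in any library. The median of the spermatid list was 0.0466 per kb, against 10.4 per kb in the meiosis list.

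Pluripotency genes were mixed. Of 22 members 15 were detected, with Sall4 (208 ± 7.39 CPM), Lin28a (199 ± 2.45 CPM), Dppa4 (104 ± 5.07 CPM) and Tcl1 (75.4 ± 2.54 CPM) taking the most reads. Pou5f1 (OCT4) was at 72.3, 63.7 and 62.6 CPM. Nanog, the other core factor, at chr6:122707489-122714633 on the plus strand, had no count in 3 libraries, and Sox2 was at 0.913, 0.762 and 1.02 CPM.

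Many germ cell genes have a ubiquitous relative with the same biochemical role. Over 30 such pairs, the germ form had the higher level per kb in every library in 14 and the ubiquitous form in 16. The 30 include 6 whose listed germ form is Y-linked, and some of those genes are read in other male tissues too. Without these 6 the counts were 13 and 11. In the 21 pairs where both forms had at least 80% unique 76-mers, the counts were 10 and 11. The ratios also depend on the gene length used. With the longest transcript in place of merged exons, the germ form was higher in every library in 11 of the 30 pairs. The cohesin pair Stag3 and Stag2 gave 59.2 ± 1.62 against 11.4 ± 0.630 per kb. The transketolase pair Tktl1 and Tkt gave 37.2 against 5.71 per kb, the TFIID pair Taf7l and Taf7 gave 172 against 61.6, and the ribosomal protein pair Rpl39l and Rpl39 gave 115 against 40.0. Smc1b over Smc1a, Nxf2 over Nxf1, Taf4b over Taf4, Cox7b2 over Cox7b and Slc25a31 over Slc25a5 went the same way with ratios from 1.27 to 2.15.

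Other germ forms were below their relatives. Pgk2 and Gapdhs, glycolytic enzymes of sperm, were the only 2 of the 30 germ forms not detected. Ldhc over Ldha had a ratio of 0.115 ± 0.0162, Hspa2 over Hspa8 0.0166 ± 0.000597, Cox8c over Cox8a 0.0427 ± 0.00582 and Cox6b2 over Cox6b1 0.0808 ± 0.00816. D1Pas1 over Ddx3x, Rad21l over Rad21, Pdha2 over Pdha1 and Ctcfl over Ctcf were between 0.107 and 0.466. Tuba3a over Tuba1b had the largest ratio, 30.9 ± 0.495, but 30.1% of the 76-mers of Tuba1b are unique. Other pairs with under 80% unique 76-mers in a form were Rpl10l and Rpl10 at 1.07, Cyct and Cycs at 2.79, Eif2s3y and Eif2s3x at 1.97, Uba1y and Uba1 at 0.535 and Zfy1 and Zfx at 0.379. The same limit holds for the pairs of Hspa8 (67.2% unique), Pgk1 (47.3%) and Gapdh (77.5%).

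**Figure D3:**
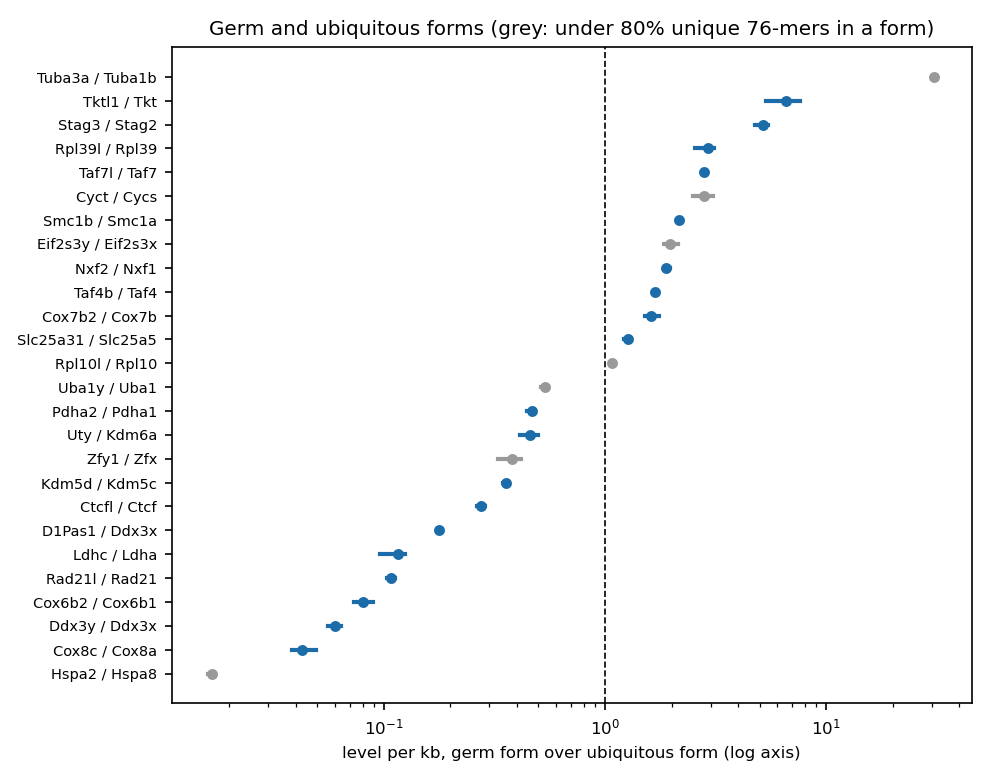
Level per kb of the germ form over that of its ubiquitous relative, on a log axis, for 26 of the 28 pairs with counts of both forms in every library, the other 2 not being drawn. Points are means, lines run from the lowest to the highest library, grey marks pairs in which a form has under 80% unique 76-mers; the pairs run from Hspa2 and Hspa8 at 0.0166 to Tuba3a and Tuba1b at 30.9, and lines that cross 1 are absent.

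Genes of the Y chromosome were read, with 8 of 13 listed members detected. Over the whole chromosome, 9 of 173 protein-coding genes were (5.2%). Uba1y was at 273 ± 9.21 CPM, the translation factor gene Eif2s3y at 74.3 ± 1.58 CPM, Usp9y at 46.5 ± 0.693 CPM and the demethylase gene Kdm5d at 35 ± 1.46 CPM. Y-linked Uty and Ddx3y, each with a relative on the X, had 0.455 and 0.0603 times the level per kb of Kdm6a and Ddx3x. Sry, the testis-determining gene of the fetal gonad, and the spermatid families Ssty1, Ssty2 and Sly had no count, although under 35% of the 76-mers of each of the last 3 are unique. On the X chromosome, 499 of 920 protein-coding genes were detected (54.2%), against 12062 of 20519 on autosomes (58.8%). The median level per kb of those detected was 5.77 on the X and 8.11 on autosomes, and within a library the X median was 0.703 ± 0.00788 times the autosomal median. Xist, the RNA that coats an inactive X, was at 5.11, 6.86 and 4.35 CPM, and Tsix, which overlaps it on the other strand, at 0.

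Imprinted genes were read from lists of either parental allele. Of 20 genes active on the maternal allele 15 were detected, led by Igf2r, the signal gene Gnas (323 ± 7.72 CPM), the noncoding RNA H19 (230, 230 and 216 CPM) and Ube3a (101 ± 2.46 CPM). Of 29 matched genes active on the paternal allele 23 were detected, led by Sfmbt2 (280 ± 7.84 CPM), the growth factor gene Igf2 (208 ± 9.56 CPM), Mest (134 ± 8.10 CPM) and Inpp5f (104 ± 1.35 CPM). Both sides of the Igf2 and H19 domain were thus read at over 200 CPM on average, though 39.4% of the 76-mers of Igf2 are unique. Meg3, of the Dlk1 and Dio3 domain, was at 15.1 ± 0.475 CPM. Calcr and Rtl1 had no count, and neither had Snurf, which shares all its 76-mers with another gene.

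Cdkn1c, the gene carrying the loxP sites, was at 20.9, 21.3 and 19.9 CPM, or 10.2 ± 0.367 per kb, and its variation between libraries did not pass the chi-square test (adjusted p = 0.854). Cdkn1a, the gene of p21, was called as varying by that test, with 50.8, 66.6 and 61.0 CPM, also with edgeR's common dispersion in the expectation, but not without replicate 1. Of the 8 CDK inhibitor genes, Cdkn1a (59.5 ± 8.04 CPM), Cdkn2a (43.1 ± 2.29 CPM), Cdkn1c (20.7 ± 0.748 CPM) and Cdkn2b (14.2 ± 0.883 CPM) had most reads. Cdkn1b, the gene of p27, was the only one not detected, at 0.487, 0.587 and 0.960 CPM. All 20 proliferation genes were detected, with a median of 211 CPM, led by the replicative helicase genes Mcm4 (468 ± 4.74 CPM), Mcm2 (442 ± 7.26 CPM) and Mcm7 (403 ± 10.0 CPM) and the topoisomerase gene Top2a (409 ± 15 CPM). Among ERK response genes 22 of 23 were detected, with the phosphatase gene Dusp6 at 385 ± 5.15 CPM, Egr1 at 312 ± 19.6 CPM and Spred1 at 219 ± 4.65 CPM beside Etv5.

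Most Sertoli and Leydig cell markers were not detected. In bulk RNA, fewer cells of a type and less RNA per cell cannot be told apart. Of 20 Sertoli markers 8 were detected, and those with most reads were Ctsl (181 ± 11.9 CPM), Espn (88.9 ± 2.18 CPM), Trf (57.7 ± 0.948 CPM) and Sox9 (17.8 ± 1.82 CPM). Among the 12 Sertoli markers under 1 CPM on average, Fshr, Gata4 and Amh were at 0, 0.0406 ± 0.0703 and 0.122 ± 0.0578 CPM. Of 12 Leydig markers 4 were detected, namely Scarb1 (64.7 ± 1.27 CPM), Fdx1 (25.1 ± 0.229 CPM), Dlk1 (10.3 ± 0.311 CPM) and Star (3.41 ± 0.407 CPM). The steroidogenic genes Hsd3b1 and Hsd3b6 and their regulator Nr5a1 had no count.

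Blood and vessel markers were uneven. Of 20 macrophage and blood markers, the 4 detected were Cd68 (12.4 ± 0.654 CPM), Mrc1 (11.7 ± 0.814 CPM), Cd79a (8.40 ± 0.747 CPM) and Fcer1g (2.72 ± 0.376 CPM), while C1qb, Tyrobp, Hba-a1, Hba-a2 and Hbb-bt had no count. Of 12 endothelial markers 8 were detected, led by the VEGF receptor genes Flt1 (110 ± 7.58 CPM) and Kdr (64.0 ± 2.31 CPM), Eng (42.6 ± 2.42 CPM) and Egfl7 (29.6 ± 0.532 CPM). Cldn5 was at 0.347 ± 0.0479 CPM and Emcn had no count. Of 14 epithelial keratin and junction genes 6 were detected, and the median of the list was 0.941 CPM. The junction genes Tjp1 (715 ± 9.83 CPM), Epcam (141 ± 3.72 CPM) and Ocln (113 ± 3.07 CPM) were high, with the keratin gene Krt19 at 11.5 ± 0.494 CPM. Krt5 and Krt14 had no count.

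Of 30 fibroblast and feeder cell genes 28 were detected. The matrix gene Fn1 was at 380, 476 and 387 CPM and the collagen gene Col5a1 at 282, 293 and 282 CPM. Fewer reads fell on the type I collagen gene Col1a1 with 49.4, 70.5 and 56.8 CPM and the intermediate filament gene Vim with 43.7, 75.5 and 54.3 CPM. The summed level of the list was 1053, 1388 and 1083 CPM. Replicate 2 was the highest for 28 of the 30 genes. Fap, a marker of activated fibroblasts, was at 0, 0.645 and 0.192 CPM. Of 12 smooth muscle and myoid markers 9 were detected, led by Tpm1 (55.9 ± 1.12 CPM), Cald1 (27.4 ± 5.70 CPM), Mylk (26.6 ± 1.99 CPM) and Myh11 (3.57 ± 0.577 CPM), with Acta2 at 1.46, 3.46 and 2.18 CPM.

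Most genes varied little between the libraries. Among the 2899 genes of 100 CPM or more the median coefficient of variation (CV) was 2.26%. A chi-square test with 2 degrees of freedom compared each gene's 3 counts with those expected from the library sizes, over 13246 genes of at least 60 counts in all. With Benjamini-Hochberg adjustment over these genes, 586 genes (4.42%) varied beyond counting noise at an adjusted p under 0.05, and 2252 did so at an unadjusted p under 0.05. The excess CV, what remains of the CV once counting noise is taken off, was under 10% for 369 of the 586. It was at least 20% for 128 genes, of which 107 were highest in replicate 2, 13 in replicate 3 and 8 in replicate 1. By level, 10.4% of tested genes of 100 CPM or more were called, 2.75% of those from 10 to 100 CPM and 2.76% of those under 10 CPM.

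**Figure D4:**
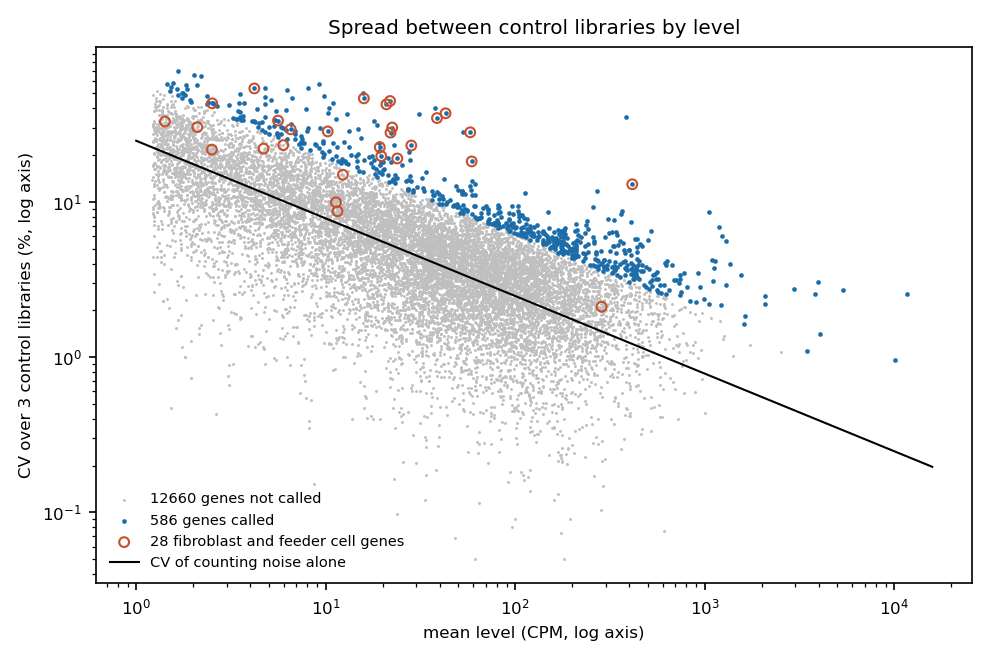
CV over the 3 control libraries in percent against mean level in CPM, both on log axes, for the 13246 tested genes. Grey points are the 12660 genes not called, blue points the 586 called genes, red circles the 28 tested fibroblast and feeder cell genes, and the line is the CV that counting noise alone gives at the mean depth; most red circles lie above the cloud.

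Fibroblast and feeder cell genes varied more than most. Of 28 tested fibroblast and feeder cell genes, 19 varied beyond counting noise, and all 19 were highest in replicate 2. Over all tested genes, 1.87% were called and highest in that library. The median excess CV of the tested members was 25.3%, against 1.02% over all tested genes. Without replicate 2, the count for the list was 2, Sparc and Vim, and that for all genes 208 of 13209 (1.57%). Without replicate 1 it was 17 and without replicate 3 it was 19. Of the 9 tested myoid genes 3 were called (33.3%, Acta2, Cald1 and Tpm2), against 4.42% of all tested genes. Each was highest in replicate 2, as in the fibroblast list, with excess CVs from 20.3% to 39.7%. In the other somatic lists 1 of 7 tested Sertoli genes (Ctsl), 1 of 8 endothelial genes (Flt1), 0 of 4 Leydig genes and 0 of 4 blood genes were called. With edgeR's common dispersion in the expectation the myoid count was 1 (Cald1) and the Sertoli count 0. The myoid count was 1 without replicate 1 and 0 without replicate 2, and that of the Sertoli list was 0 without replicate 2 and 0 without replicate 3. The Flt1 call was lost with the common dispersion, without replicate 1 and without replicate 3. In the Leydig and blood lists the count was also 0 at an unadjusted p under 0.05 and 0 with edgeR's common dispersion in the expectation.

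**Figure D5:**
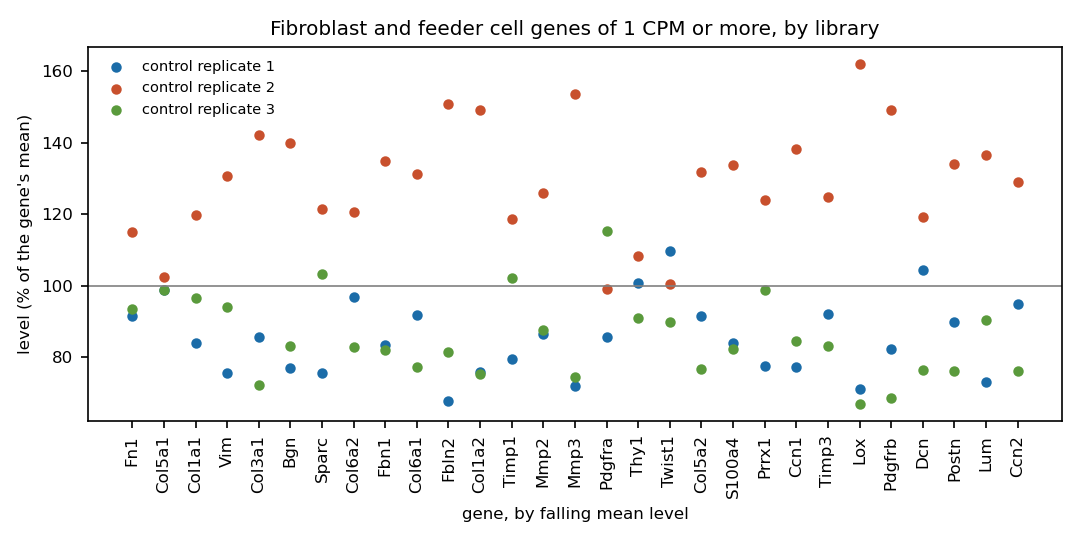
Level in each control library as a percentage of the gene's own mean for the 29 fibroblast and feeder cell genes of 1 CPM or more on average, ordered by falling mean level. Replicate 2 (red) is the highest for all of these genes but Pdgfra and Twist1, and replicates 1 and 3 exchange places from gene to gene.

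The 12 named genes of at least 10 CPM with the largest excess CV were all highest in replicate 2. Tnc, a matrix glycoprotein, was at 8.89, 24.5 and 13.9 CPM, the widest spread of the 12. The metalloproteinase gene Mmp3 was at 11.4, 24.4 and 11.8 CPM, the fibulin gene Fbln2 at 14.8, 33.0 and 17.8 CPM, and the inhibitor gene Timp2 at 26.8, 55.1 and 31.2 CPM. Spp1, which encodes osteopontin, had by far the most reads of the 12, with 274, 535 and 342 CPM. The others were Ltbp2, Col1a2, Emp1, Col3a1, Hmga2, S100a6 and Col4a2, with excess CVs from 36.1% to 42.3%. Replicate 2 thus stood alone in all 12, and replicates 1 and 3 lay closer to each other than to it.

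For germ cell genes no single library was the highest throughout. The germ lists with the largest shares called were differentiation genes (4 of 14), RNA-binding regulators (4 of 15) and surface markers (4 of 20), against 4.42% of all tested genes. With edgeR's common dispersion in the expectation these counts were 0, 0 and 1 (Cd44, with an excess CV of 46.0%). Leaving out 1 library in turn gave 1 to 3, 1 to 3 and 1 to 4. The Cd44 call was kept without replicate 1 and without replicate 3 but lost without replicate 2, as were most calls of the fibroblast list. Of the 24 tested genome defence genes, 0 were called by the chi-square test, 1 had an unadjusted p under 0.05, and 0 were called with edgeR's common dispersion in the expectation. Of 24 tested transcription factors of undifferentiated spermatogonia 4 were called, with excess CVs from 3.81% to 6.34%: Etv5, Bcl6b and Lhx1 were lowest in replicate 1 and highest in replicate 3, and Egr4 was highest in replicate 1. This count is to be read against 4.42% of all tested genes and 10.4% of those of 100 CPM or more. It was 0 with the common dispersion and 1 (Etv5) without replicate 1. The summed level of these transcription factors was 3777, 3753 and 3886 CPM, with replicate 2 below replicate 1 by less than the SD of 71.0 CPM. The sums of RNA-binding regulators (3637, 3697 and 3734 CPM) and surface markers (2700, 2760 and 2812 CPM) were lowest in replicate 1. That of the genes guarded by promoter methylation was highest in replicate 2 (4578, 4617 and 4533 CPM). Of 23 tested ERK response genes 6 were called, 5 of them highest in replicate 3, where 1.43% of all tested genes were. That count was 0 with the common dispersion and 2 (Egr1 and Ier2) without replicate 3. Of 82 ribosomal protein genes 27 were called, 22 of them lowest in replicate 3, with excess CVs from 2.22% to 12.2%. Over all tested genes 4.42% were called and 1.12% were called and lowest in that library, and 75 of the 82 genes were of 100 CPM or more, a class with 10.4% called. The ribosomal count was 1 (Rpl39) with the common dispersion, 7 without replicate 3 and 11 without replicate 2. The part of the fibroblast genes in these differences was not tested.

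The 3 libraries were distinct samples of reads. Over genes of at least 20 counts in a pair, each degree of freedom carried a chi-square of 2.14 for replicates 1 and 2, 1.69 for replicates 1 and 3 and 1.96 for replicates 2 and 3, where sampling noise alone gives about 1, so none was counted as a duplicate. Across detected genes, Spearman's rho was 0.998 for each pair, a description over genes of libraries that share depth and protocol.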

How the data were processed

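The authors deposited raw counts of single 76-base reads per gene, unnormalized, and the 3 control columns were used. Tools listed by the submitters' processing notes, without their roles, are HISAT2 2.2.1, HTSeq 2.0.2, cutadapt 3.4 and bcl2fastq 2.20, with mm10 as build. No source used here states the gene annotation, the strand setting or the handling of reads with several matches, so counts of genes that overlap another on the opposite strand, such as Gfra1, Id4, Mcam, Ccnd2, Dnmt3a and Cdkn1c, are uncertain.

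Counts were scaled by TMM in edgeR 4.0.16 (R 4.3.3) on the control libraries alone. Of 32285 identifiers, 32235 matched GENCODE mouse release 21, which gave positions and exon lengths. For 38 symbols on several rows the row with most counts was used. The share of unique 76-mers counts those found in no other gene's transcripts on either strand. Variation was tested by a Pearson chi-square over the libraries (scipy 1.17.1). The test was also run on simulated counts, in which genes without added variation had counting noise alone, as the test assumes. That run cannot show how often genes are called in libraries with more spread than that. Figures were drawn with matplotlib 3.10.9.

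The members and 37 gene lists were chosen with earlier results of these data known. Named are Cdkn1c, the 25 genes of highest CPM, the 15 highest per kb, of each list the 4 highest members, those without a count and all detected ones where 4 or fewer were, the paralog pairs, the 12 named genes of largest excess CV, and 14 lead markers. A few genes that this rule names are not reported here. Others, among them Thy1, Nanos2, Neurog3, Dnmt3l and Spo11, were chosen after their values were seen, as were the promoter motif and its genes. Alternatives were other size factors, other thresholds on counts, totals without mitochondrially encoded genes, the longest transcript as length, and each library left out in turn.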

Additional observations from a re-analysis of the deposited data

How the results depend on the processing

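Most values kept within 1 SD, or within 1.5 times for counts, under RLE size factors and under total counts without size factors. The number of detected genes was 21488 when 1 count in any library sufficed, and from 13213 to 14216 under the other planned thresholds and scalings that changed it. Without mitochondrially encoded genes in the totals, the leading 100 genes took 9.98% of counts and the ribosomal protein genes 3.52%. With edgeR's common dispersion in the expected spread, 105 genes varied in place of 586, among them 18 fibroblast and feeder cell genes in place of 19. Leaving out 1 library in turn gave 208 to 362 varying genes, with 208 without replicate 2, 294 without replicate 1 and 362 without replicate 3, and 2 to 19 varying fibroblast and feeder cell genes. These fits have 2 libraries and 1 degree of freedom. The X to autosome ratio of medians per kb was 0.640 with the longest transcript as gene length, and 0.702 to 0.711 with a library left out, and the longest transcript gave 11 pairs in which the germ form was higher in place of 14. Of 733 values of single genes and lists, 633 stayed within these limits and 100 moved beyond them. No paired analysis was possible because the libraries described are of a single group, so that replicate numbers pair no samples. At this depth, levels under 0.0611 CPM cannot be told from 0, and 3 libraries limit every SD.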

Other observations

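All 20 genes of glycolysis were detected, led by Pkm (958 ± 10.7 CPM), Gpi1 (607 ± 12.9 CPM), Gapdh (561 ± 13.9 CPM) and Aldoa (262 ± 8.43 CPM), and 0 of them varied by the chi-square test, with 5 at an unadjusted p under 0.05 and 0 called with edgeR's common dispersion. All 18 genes of cholesterol synthesis were detected, among them the regulator Srebf2 (563 ± 9.83 CPM), Hmgcs1 (360 ± 7.35 CPM) and Insig1 (237 ± 5.14 CPM). Translation factors had 21 of 22 members detected, all 21 at 100 CPM or more. By the chi-square test 4 of the 21 tested translation factors varied (Pabpc1, Eef1a1, Tpt1 and Eif5a, with excess CVs from 2.53% to 3.33%), and 1 of the 18 cholesterol synthesis genes did (Fdft1), against 4.42% of all tested genes. With edgeR's common dispersion both counts were 0, and without replicate 2 that of translation factors was 1 (Pabpc1). The Fdft1 call was lost without replicate 1 and without replicate 3. Eef1a2, the form of neurons and muscle, was the translation factor not detected, at 0.229 ± 0.163 CPM.

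Genes that handle retinoic acid had 13 of 19 members detected, with the receptor genes Rxra (151 ± 3.54 CPM), Rara (78.7 ± 1.30 CPM), Rxrb (55.4 ± 2.52 CPM) and Rarg (40.2 ± 0.929 CPM) taking the most reads. The degrading enzyme gene Cyp26a1 was at 2.56, 0.938 and 2.30 CPM, with replicate 2 the lowest. It was the 1 of 14 tested members called by the chi-square test (7.14%), against 4.42% of all tested genes. The call was lost with the common dispersion, without replicate 1 and without replicate 2, and with a minimum of 300 counts in all the gene was not tested. Interferon response genes had 16 of 22 matched members detected, with Irf1 at 114 ± 3.39 CPM, Bst2 at 44.7 ± 0.718 CPM and Ifi27 at 40.6 ± 2.43 CPM. Of the Rhox homeobox cluster on the X chromosome 5 of 14 listed members were detected, led by Rhox13 (27.6 ± 2.63 CPM), Rhox1 (16.8 ± 0.951 CPM), Rhox10 (8.39 ± 1.32 CPM) and Rhox2a (8.36 ± 0.292 CPM), while Rhox3a and Rhox4b had no count. Variant histone genes that are read throughout the cell cycle had 11 of 12 matched members detected, led by H3f3b (591 ± 15.4 CPM), H3f3a (157 ± 0.689 CPM), H2afy (136 ± 3.03 CPM) and H2afz (126 ± 1.71 CPM). Of the responders to BMP and WNT 13 of 16 matched members were detected, with Tcf7 at 257 ± 2.98 CPM, Ccnd1 at 209 ± 10.0 CPM, Id4 at 111 ± 3.46 CPM and Smad7 at 76.2 ± 1.96 CPM.

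Genes of cell division and structure were also read at high levels. Of 24 cyclins, CDKs and their E2F and RB partners 23 were detected, with Ccnd2 at 1102 ± 33.9 CPM, Cdk4 at 269 ± 6.42 CPM, Ccnd1 at 209 ± 10.0 CPM and E2f1 at 138 ± 3.25 CPM. Of 19 cytoskeleton genes 18 were detected, led by Actb (1611 ± 26.2 CPM), Tubb5 (778 ± 4.58 CPM), Tubb4b (733 ± 7.95 CPM) and Tuba3a (602 ± 3.76 CPM). All 22 chaperone and stress genes were detected, led by Hsp90ab1 (3458 ± 37.9 CPM), Hsp90aa1 (2066 ± 51.2 CPM), Hspa8 (1254 ± 16.5 CPM) and Hsp90b1 (889 ± 5.26 CPM). The translation factors with most reads were Eef1a1, Eef2, Pabpc1 and Eif4g1, from 1003 to 3837 CPM. Among 10 genes of X inactivation and their neighbours 8 were detected, with Ddx3x (492 ± 5.04 CPM), Rlim (159 ± 5.29 CPM), Kdm6a (46.5 ± 0.814 CPM) and Kdm5c (46.3 ± 1.34 CPM) taking the most reads. Of 14 listed replication-dependent histone genes 4 were detected, namely Hist1h1c (19 ± 1.51 CPM), Hist1h4i (7.32 ± 0.473 CPM), Hist1h2bc (5.96 ± 0.742 CPM) and Hist1h1a (2.97 ± 0.534 CPM), while Hist2h2aa1 and Hist1h2ap had no count.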
